A study of Mus musculus with 24 samples.

Results

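Astrocytes keep the space around neurons stable. They clear glutamate through membrane transporters and turn it into glutamine, take up potassium and move water through channels in their end feet, and pass ions and metabolites to one another through gap junctions. The 9 genes described here are standard carriers of these jobs in astrocytes. Slc1a2 and Slc1a3 encode the main glutamate transporters, GLT-1 and GLAST, and Glul encodes glutamine synthetase. Aqp4 encodes the water channel of the end feet and Kcnj10 the inward-rectifying potassium channel Kir4.1. Gja1 and Gjb6 encode the gap junction proteins connexin 43 and connexin 30, Aldh1l1 encodes a folate enzyme that is widely used as an astrocyte marker, and Hepacam encodes an adhesion protein of astrocyte contacts. They were taken by symbol for these roles, with earlier results of these data known. They are 9 of the 24411 genes in the deposited tables.

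The study sequenced poly(A) RNA from primary cultures of mouse astrocytes and microglia, asking how a mutant SOD1 transgene, which causes a motor neuron disease in mice, changes the state of glia and their response to inflammatory signals. Astrocytes had been immunopanned from early postnatal forebrain, with negative steps against microglia, endothelial and oligodendrocyte lineage cells and a last step that binds the HepaCAM protein, and microglia had been sorted from early postnatal brain with magnetic beads against Cd11b. Cultures were kept in serum-free media. The labels do not say whether replicates are separate cultures or separate animals, so every p here measures the spread between these samples, which may be technical.

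There are 7 groups with 3 libraries each. Wild-type (WT) and SOD1G93A astrocytes were kept quiescent with PBS, or activated by a mixture of C1q (400 ng/mL), TNFα (30 ng/mL) and IL-1α (3 ng/mL). WT microglia were kept quiescent with PBS, and WT and SOD1G93A microglia were treated with lipopolysaccharide (LPS) at 50 ng/mL. The SOD1G93A line carries a human SOD1 transgene with a disease mutation and had been bred into C57BL/6J. Quiescent SOD1G93A microglia, the remaining 3 samples of the 24 in the series, are not analysed here.

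Each library held between 2016139 and 11570122 reads on genes. Levels are given as CPM, the share of a library's reads on genes that fall on 1 gene, scaled to the same total for every library. A single read is worth 0.0864 to 0.496 CPM, and a floor of 3 reads lies between 0.259 and 1.49 CPM, depending on the library. Such floors cover counting error only. Gjb6 lay at or under this floor everywhere, with 0 to 3 reads in each of the 21 libraries, so at this depth connexin 30 RNA could not be measured in these cultures. The other 8 genes were read in every library and passed the filter on low values in every comparison.

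The cell type labels hold against the markers. The 18 astrocyte identity markers other than these genes summed to between 6849 and 9232 CPM in the 6 quiescent astrocyte libraries and to between 5241 and 5679 CPM in the 6 activated ones. In the 9 microglia libraries they summed to between 2078 and 3356 CPM, nearly all of it from Apoe, which both cell types make. The 16 microglia markers summed to between 15411 and 16280.3 CPM in quiescent microglia, and LPS-treated microglia held 5696 to 7908 CPM. In astrocytes the same markers, Csf1r among the most abundant, summed to 216, 311 and 391 CPM in quiescent WT, to 494, 516 and 349 CPM in quiescent SOD1G93A, to 266, 445 and 238 CPM in activated WT and to 329, 228 and 252 CPM in activated SOD1G93A libraries. Reads of microglia markers were thus present in every astrocyte library in spite of the negative panning.

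Oligodendrocyte lineage markers were plentiful in quiescent astrocytes, where the 16 genes summed to between 3038 and 3614 CPM, mostly from Olig1. They summed to between 1118 and 1208 CPM in the activated libraries. The myelin gene Mog had no more than 1 read in any library, but 12 to 15 of the 16 genes had more than 3 reads in each astrocyte library. Another myelin gene, Mbp, passed the filter on low values between activated genotypes. Neuron markers were low, with 73.4 to 94.6 CPM over 14 genes in quiescent astrocytes and 102 to 148 CPM in activated ones. Of the endothelial genes Cldn5 had no read anywhere, and the sum over 10 genes lay between 6.82 and 13.4 CPM in quiescent and between 112 and 154 CPM in activated astrocytes, most of it Flt1. Pericyte and fibroblast markers summed to 41.3 to 89.4 CPM over 12 genes in astrocytes. The part of these cells' RNA in the results below was not tested.

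Some libraries stand apart from their replicates. The chi-square per degree of freedom between the libraries of a group, which is near 1 for counting error alone and grows with depth, ran from 1.48 to 20.3 over 21 pairs. It was highest in the pairs with replicate 3 of SOD1G93A LPS microglia, at 15.7 and 20.3, and with replicate 1 of WT LPS microglia, at 12.8 or more. Among quiescent astrocytes it was 8.97 and 6.50 in the pairs with WT replicate 3, and 6.47 and 9.87 in those with SOD1G93A replicate 1. These astrocyte libraries are the deepest of their groups, and WT LPS replicate 1 is the deepest of its group too, while SOD1G93A LPS replicate 3 is the shallowest of its own. The genes described here followed depth in some groups. In both quiescent astrocyte groups all 8 measured genes were highest in the library with the most reads and lowest in the library with the fewest. How many of all genes share this order was not counted, so it is not shown to be particular to these genes. The deepest and shallowest were WT replicate 3, with 9258718 reads, and WT replicate 1, with 2016139, then SOD1G93A replicate 1, with 9526331, and SOD1G93A replicate 3, with 3292225. The order was weaker elsewhere. Of activated astrocytes, 1 of the 8 was highest in the deepest WT library and 4 were lowest in the shallowest, with 0 and 1 of the 8 in SOD1G93A. In microglia these counts were 3 and 4 in quiescent WT, 1 and 0 in WT LPS and 5 and 5 in SOD1G93A LPS libraries. Where a term for depth changes the call of a gene named below it is given beside the result.

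Levels of sex-linked genes also differed between groups. Xist, made from the inactive X chromosome, read 878, 658 and 263 CPM in quiescent WT astrocytes and 1154, 2477 and 3466 CPM in quiescent SOD1G93A astrocytes. Activated astrocytes had 524, 492 and 428 CPM in WT and 1347, 1065 and 833 CPM in SOD1G93A. The Y-linked gene Ddx3y ran the other way, from 27.8 to 33.0 CPM in quiescent WT and from 13.1 to 16.1 CPM in quiescent SOD1G93A astrocytes. It held 33.2 to 41.8 CPM in activated WT and 15.5 to 18.1 CPM in activated SOD1G93A astrocytes. In microglia Ddx3y stood at 22.0 to 24.5 CPM in quiescent WT libraries and at 0.392 to 1.07 CPM in both LPS groups. Xist stood at 65.9 to 96.7 CPM in the former and at 116 to 189 CPM in the latter, without overlap. Both genes thus differed with genotype in astrocytes and with treatment in microglia. The labels do not give sex, so in those comparisons sex cannot be told apart from genotype or treatment. The part of sex in the results was not tested.

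Quiescent WT astrocytes show how much RNA each gene had to begin with. Levels of different genes are compared per kilobase of exon (CPM per kb). Slc1a3 stood at 279 ± 19.5 (SD, n = 3) and Glul at 248 ± 24.7 CPM per kb, with overlapping libraries. Hepacam at 162 ± 11.4 and Kcnj10 at 148 ± 15.3 CPM per kb overlapped as well, and Aldh1l1 followed at 97.6 ± 14.7. Slc1a2, Gja1 and Aqp4 were the lowest, at 37.3 ± 4.60, 33.0 ± 4.08 and 27.7 ± 4.82 CPM per kb, each overlapping its neighbour. On this scale GLAST RNA was thus well above GLT-1 RNA in these cultures. In activated WT astrocytes the order changed mainly for Kcnj10, at 32.7 ± 3.23 CPM per kb, which came after Aldh1l1 at 49.1 ± 2.55, while Slc1a3 at 261 ± 3.39 stood clear of Glul at 143 ± 2.07.

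**Figure D1:**
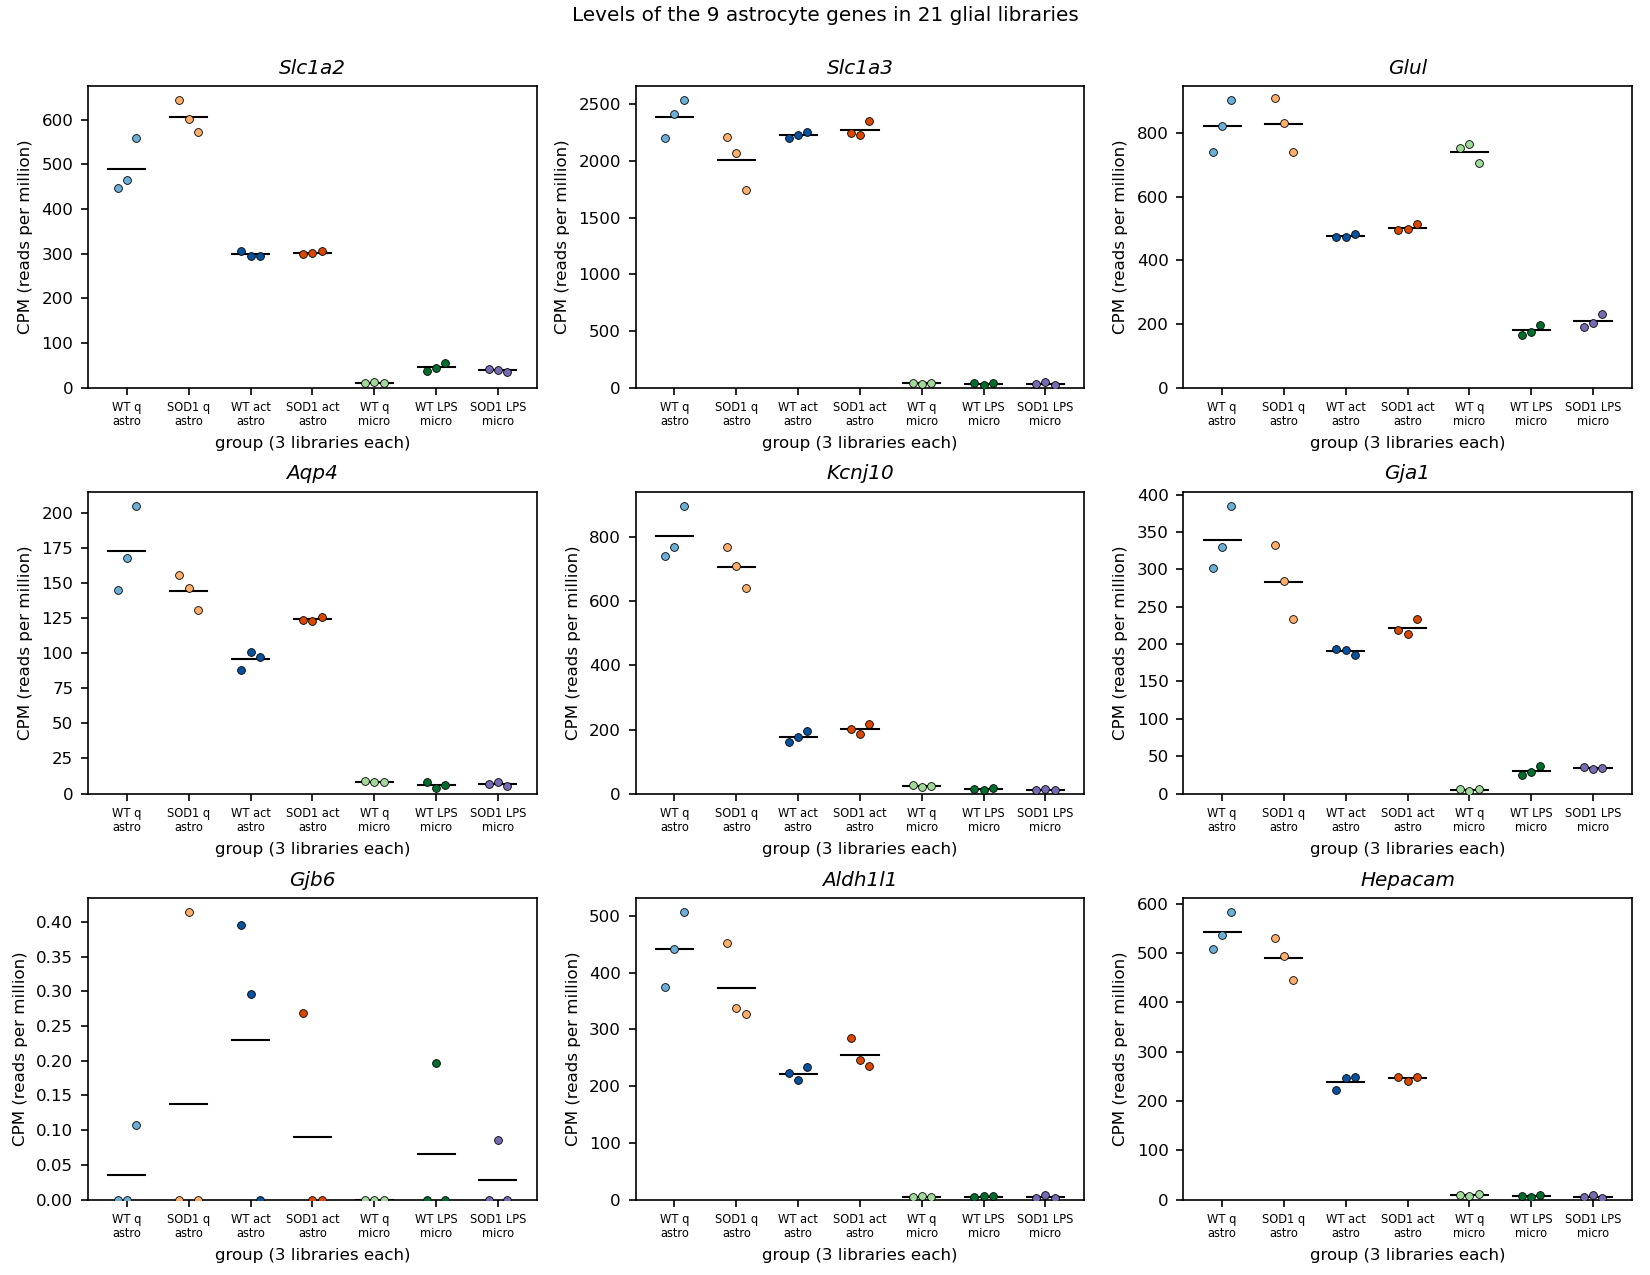
CPM of the 9 genes in each of the 21 libraries, by group, with 1 point per library and a bar at the mean of each group (linear axes from 0, a different range for each gene; WT, wild type; SOD1, SOD1G93A; q, quiescent; act, activated). Kcnj10 drops from 741 to 897 CPM in quiescent WT astrocytes to 160.1 to 195 CPM in activated ones, Slc1a3 overlaps between these WT groups, and Glul alone is abundant in quiescent microglia.

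The first comparison asks what the cytokine mixture does to these genes in WT astrocytes. It lowered 7 of the 8. Kcnj10 fell most, followed by Hepacam and Aldh1l1, then by Aqp4, Gja1, Glul and Slc1a2, and only Slc1a3 did not pass the test. All 7 passed at an adjusted p under 0.05 (limma, 3 libraries against 3), where 19.2% of all 12336 genes tested were lower and 38.3% changed in either direction. The stricter limits of the study, an adjusted p under 0.001 and more than a 2-fold change, were passed by 2 of the 8, Kcnj10 and Hepacam, beside 11.5% of all genes, and by 3 without quiescent replicate 1, without activated replicate 3 or with a depth term. In normalized counts the quiescent and activated libraries did not overlap for 7 of the 8, beside 50.9% of all genes. Over the 8 genes the median log2 change was -0.81, against 0.01 over all genes tested. Fewer cells of a type and less RNA per cell cannot be told apart in such bulk samples.

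Among the glutamate genes, Slc1a2 had 446, 464 and 559 CPM in the quiescent WT libraries and 307, 295 and 295 CPM in the activated ones. Every activated library lay below every quiescent one. The log2 change was -0.68 (SE 0.11, adjusted p = 4.2e-04). Slc1a3 had 2207, 2414 and 2536 CPM in quiescent and 2200.1, 2229.5 and 2258 CPM in activated libraries. The lowest quiescent library lay within the activated range, so the groups overlapped. Its log2 change of -0.07 (SE 0.11, adjusted p = 0.66) passed the test under 1 of 17 alternatives, quantile normalization, at -0.27 with an adjusted p of 0.021, in a range from 0.021 to 0.96. The glutamate transporter with the more abundant RNA was thus measured near its resting level while the other was reduced. Glul, the enzyme that uses the glutamate taken up, had 742, 822 and 905 CPM in quiescent and 473, 472 and 484 CPM in activated libraries, again without overlap. It fell by 0.76 on the log2 scale (SE 0.10, adjusted p = 1.5e-04).

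The potassium channel gene Kcnj10 had 741, 770.3 and 897 CPM in quiescent and 160.1, 176 and 195 CPM in activated libraries. The groups lay far apart, with the lowest quiescent library well above the highest activated one. It fell by 2.16 on the log2 scale (SE 0.11, adjusted p = 1.5e-07), a 4.45-fold reduction. Aqp4, the water channel gene, had 145, 168 and 205 CPM in quiescent and 88.352, 101 and 97.6 CPM in activated libraries. Quiescent replicate 3 was high, and the groups did not overlap. The log2 change was -0.81 (SE 0.13, adjusted p = 5.3e-04).

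The connexin gene Gja1 had 302, 330.4 and 384 CPM in quiescent and 194, 192 and 185 CPM in activated libraries. The activated libraries were close together and all below the quiescent ones. It fell by 0.80 on the log2 scale (SE 0.11, adjusted p = 1.2e-04). Aldh1l1, which oxidizes a folate-bound one-carbon unit, had 374, 442 and 506 CPM in quiescent and 222, 210.1 and 233 CPM in activated libraries. Its groups did not overlap either, and the log2 change was -0.96 (SE 0.12, adjusted p = 9.3e-05). Hepacam had 507, 537 and 583 CPM in quiescent and 223, 246 and 249 CPM in activated libraries. Each activated library held less than the lowest quiescent one, for a log2 change of -1.15 (SE 0.10, adjusted p = 3.5e-06) or 2.23-fold. All 7 calls held under each of the 17 alternatives run. In the same libraries the summed CPM of the 18 astrocyte identity markers went from 7864, 8219 and 9232 to 5581, 5664 and 5679, with 12 lower and 3 higher of 18 tested (median log2 change -0.71). Microglia markers gave 0 calls among 15 tested, with 0 at an unadjusted p under 0.05 and 0 by DESeq2 or edgeR.

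The 13 lists of related and marker genes were also chosen with earlier results of these data known. Over them, 81 of the 139 tested were called, beside 38.3% of all genes. Other genes of glutamate, GABA and glutamine handling moved mostly the same way. Of 18 such genes 16 were tested, and 10 fell and 2 rose, with a median log2 change of -0.70. The GABA transporter gene Slc6a11 fell by 3.40 on the log2 scale (SE 0.11, adjusted p = 5.3e-09), from 4368 ± 358 to 414 ± 57.2 normalized counts. The glutamine carrier gene Slc38a3 fell by 2.87 and the glycine transporter gene Slc6a9 by 1.96. Both that rose form the cystine and glutamate exchanger, which releases glutamate. Its transport subunit Slc7a11 went from 412 ± 92.6 to 8416 ± 737 normalized counts, a log2 change of 4.37 (SE 0.15, adjusted p = 5.7e-09), and its partner subunit Slc3a2 rose by 1.16. None of these 5 genes had overlapping groups.

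Among 20 genes of potassium, water and ion balance, 18 were tested, and 9 fell and 2 rose (median log2 change -0.23). Kcnj16, whose channel protein pairs with that of Kcnj10, fell by 2.37 on the log2 scale. The potassium leak channel gene Kcnk1 fell by 1.76. Slc12a2, a sodium, potassium and chloride cotransporter gene, rose by 0.70, and Lrrc8a, for a volume-regulated anion channel, by 0.48. The RNAs of Kir4.1, a main route by which astrocytes are known to take up potassium, and of the channel protein that pairs with it thus fell together.

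Of 14 other connexin, pannexin and junction genes 9 were tested, with 3 lower and 1 higher (median log2 change -0.15). Gjc3 fell by 3.34 and Gjc1 by 1.18 on the log2 scale, and the pannexin gene Panx1 rose by 0.50. Of 15 other folate one-carbon genes, all tested, 6 fell and 1 rose (median log2 change -0.27). Shmt1 fell by 1.53 and Mthfd1 by 0.81. Mthfd2l, the one that rose, had a log2 change of 0.41 with an adjusted p of 0.037. That call was lost when quiescent replicate 2 or any of the 3 activated libraries was left out, with log2 changes of 0.35 to 0.43. It was also lost with a depth term at 0.42, with DESeq2, with a replicate block and without the filter, so 9 of 17 alternatives kept it. Among 3 other Hepacam partners 2 were tested, and Mlc1, whose protein HepaCAM helps to place at astrocyte junctions, fell by 0.41. Of 17 genes of metabolic and lipid support 7 fell and 5 rose (median log2 change -0.09). Pla2g7 fell by 2.33, Aldoc by 1.94 and Acsbg1 by 1.43, while the metallothionein gene Mt2 rose by 1.78, the lactate carrier gene Slc16a1 by 1.29 and the glucose transporter gene Slc2a1 by 1.09.

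The mixture acted on these cultures, as 10 activation check genes show. Of these 8 rose and 0 fell, led by Steap4 at a log2 change of 7.18, Lcn2 at 6.70 and C3 at 6.30. Markers of other cells moved as well. Of 12 oligodendrocyte lineage genes tested 6 fell and 1 rose, of 10 neuron genes 7 rose, of 5 pericyte and fibroblast genes 2 rose and 1 fell, and the 1 endothelial gene tested, Flt1, rose. The part of these cells in the changes of the 8 astrocyte genes was not tested.

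The second comparison asks the same of SOD1G93A astrocytes. Here 5 of the 8 genes fell, namely Kcnj10, Slc1a2, Hepacam, Glul and Aldh1l1, beside 21.6% of all 12414 genes lower and 43.3% changed either way at an adjusted p under 0.05. Past the strict limits was 1 of the 8, Kcnj10, beside 13.2% of all genes. On the CPM of the fit, scaled by TMM (a trimmed mean of ratios between libraries), the libraries of 6 of the 8 did not overlap, all but Aqp4 and Gja1, beside 52.0% of all genes, and the median log2 change was -0.54 against -0.01. No deposited table holds both groups, so all 12 astrocyte libraries were put on 1 scale and fitted together.

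Kcnj10 had 770.2, 712 and 642 CPM in quiescent and 202, 185 and 217 CPM in activated SOD1G93A libraries, far apart again. It fell by 1.73 on the log2 scale (SE 0.11, adjusted p = 1.4e-09), a 3.31-fold reduction. Slc1a2 had 644, 601 and 572 CPM in quiescent and 298, 302 and 306 CPM in activated libraries, which lay close together at the level of activated WT cells. It fell by 0.92 on the log2 scale (SE 0.09, adjusted p = 4.9e-07). Hepacam had 531, 495 and 446 CPM in quiescent and 248, 241 and 249.6 CPM in activated libraries, without overlap. It fell by 0.91 on the log2 scale (SE 0.09, adjusted p = 3.5e-07). Glul had 911, 831 and 741 CPM in quiescent and 494, 499 and 515 CPM in activated libraries, all below the quiescent ones. It fell by 0.63 on the log2 scale (SE 0.10, adjusted p = 6.0e-05). These 4 calls held under all 22 alternatives.

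The other members gave weaker or no calls. Aldh1l1 had 452, 338 and 327 CPM in quiescent and 285, 245 and 236 CPM in activated libraries, where quiescent replicate 1 was high. Its log2 change of -0.45 (SE 0.13, adjusted p = 0.012, range over the alternatives 0.0027 to 0.12) was not called without quiescent replicate 1 at -0.29, without activated replicate 2 at -0.42, without activated replicate 3 at -0.40, or with a depth term at -0.23. Gja1 had 333, 284 and 234 CPM in quiescent and 219, 213 and 233 CPM in activated libraries, the lowest quiescent library almost touching the highest activated one in CPM and overlapping it on the TMM scale. Its log2 change of -0.26 (SE 0.12) had an adjusted p of 0.095, in a range from 0.0097 to 0.96. It passed with quantile normalization at -0.34 and without quiescent replicate 3, the shallow library, at -0.40. Without quiescent replicate 1, the deep one, it was -0.13, and with a depth term -0.01. Aqp4 had 156, 146 and 131 CPM in quiescent and 124, 123 and 125.5 CPM in activated libraries. The groups lay just apart in CPM but overlapped on the TMM-scaled CPM of the fit, where the log2 change of -0.13 (SE 0.12, adjusted p = 0.39) did not pass, and with a depth term it was 0.09. Slc1a3 had 2208, 2073 and 1744 CPM in quiescent and 2251, 2232 and 2349 CPM in activated libraries, the only member higher in each activated library. Its log2 change was 0.27 (SE 0.11) with an adjusted p of 0.060, in a range from 5.4e-04 to 0.69. It passed by DESeq2 and edgeR at 0.26 each and with a depth term at 0.44. It also passed without WT quiescent replicate 1 at 0.27, WT quiescent replicate 3 at 0.29 or SOD1G93A quiescent replicate 1 at 0.35.

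The lists around these genes were counted in SOD1G93A cells in the same way, with 89 of 138 list genes called beside 43.3% of all genes. Of the glutamate, GABA and glutamine genes 8 fell and 3 rose among 16 tested (median log2 change -0.48), led by Slc38a3 at -2.86 and Slc6a11 at -2.76. Slc7a11 rose by 4.28, Slc3a2 by 1.00 and the aspartate aminotransferase gene Got1 by 0.38. Of the ion balance genes 10 fell and 4 rose among 18 (median -0.34), with Kcnj16 at -2.02 and the dystrophin gene Dmd at -1.44. Slc12a2 rose by 0.79 and Lrrc8a by 0.70. Junction genes gave 3 lower and 1 higher of 9 (median -0.02), with Gjc3 at -3.42, Gjc1 at -1.52 and Panx1 at 0.36. Folate genes gave 4 lower and 2 higher of 15 (median -0.19), and here the mitochondrial enzyme genes Aldh1l2 and Mthfd2 rose, by 1.10 and 0.52, while Shmt1 and Tyms fell by 1.43 and 1.02. Both Hepacam partners tested fell, Clcn2 by 0.59 and Mlc1 by 0.24. In metabolic and lipid support 8 fell and 5 rose of 17 (median -0.28), with Pla2g7 at -1.98, Aldoc at -1.26, Acsbg1 at -1.04, Slc16a1 at 1.56, Mt2 at 1.50 and Slc2a1 at 1.09.

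Leaving out single libraries ended the calls of 4 of these named genes. Got1 was lost without SOD1G93A quiescent replicate 2 or 3 or activated replicate 3, at 0.26 to 0.34, and with DESeq2. Clcn2 was lost without quiescent replicate 2 or 3 or activated replicate 2, at -0.54 to -0.49. Panx1 was lost without quiescent replicate 1 or 3 or activated replicate 2 or 3, at 0.27 to 0.34. Mlc1 kept its call in only 8 of 22 alternatives, with log2 changes of -0.27 to -0.16 in the 9 fits without 1 library that lost it, which spared only the leaving out of WT quiescent replicates 1 and 3 and SOD1G93A quiescent replicate 3. Its call was also lost with a depth term at -0.12, with a replicate block, with median-ratio size factors, without a trend and without the filter. The activation check genes again gave 8 higher and 0 lower of 10, with Steap4 at 6.28, Lcn2 at 6.16 and C3 at 5.54. Astrocyte identity markers gave 12 lower and 3 higher of 18 (median -0.63), microglia markers 6 lower of 15, oligodendrocyte lineage markers 6 lower and 1 higher of 12, neuron markers 5 higher and 1 lower of 10, pericyte and fibroblast markers 3 higher and 1 lower of 4, and endothelial markers 1 higher of 1.

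**Figure D2:**
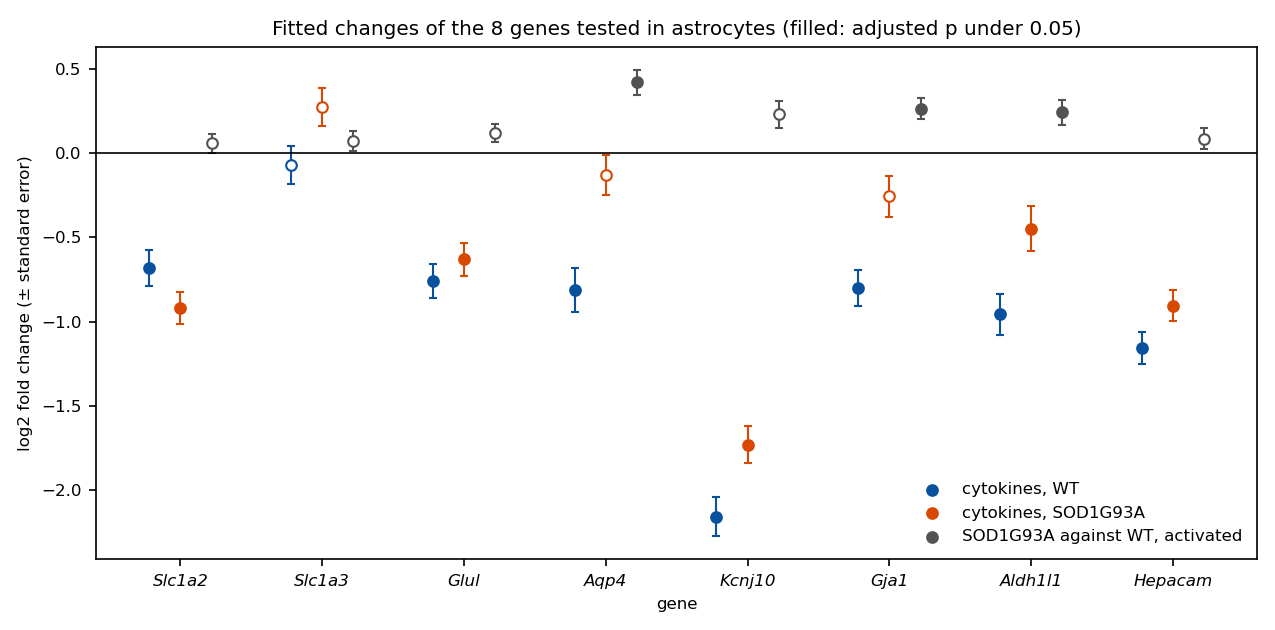
Fitted log2 fold changes with their standard errors for the 8 tested genes, for the cytokine response of WT astrocytes, the cytokine response of SOD1G93A astrocytes, and SOD1G93A against WT activated astrocytes (3 libraries in each group; filled points have an adjusted p under 0.05). Kcnj10 lies lowest in both responses, at -2.16 and -1.73, and Aqp4 has the largest genotype difference after activation, at 0.42.

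Whether the genotypes differ in this response was tested directly, as the response in SOD1G93A cells minus that in WT cells. It gave 0 calls among the 8 genes (limma), beside 0.201% of all 12414 genes, with 5 of the 8 at an unadjusted p under 0.05 beside 8.38% of all genes, 1 called by DESeq2 and 0 by edgeR. So the calls that appear in one genotype only are not shown to differ. Aqp4 came nearest, with a difference of 0.68 on the log2 scale (SE 0.17) and an adjusted p of 0.14, in a range from 3.5e-04 to 0.38. It passed by DESeq2 at 0.70 and without WT quiescent replicate 1, the shallowest library, at 0.81. Gja1 differed by 0.54 (SE 0.17, adjusted p = 0.34), Aldh1l1 by 0.50 (SE 0.19, adjusted p = 0.46) and Kcnj10 by 0.42 (SE 0.15, adjusted p = 0.44). Slc1a3, Hepacam and Glul had 0.34, 0.24 and 0.12, and Slc1a2 alone was negative at -0.24. The median was 0.38, against -0.01 over all genes. Other lists shifted in the same test, with medians of -0.74 for microglia markers, 6 of 15 at an unadjusted p under 0.05, and -0.80 for activation check genes, 7 of 10. Neuron markers had 6 of 10 at that level, with a median of -0.04. The part of these lists in the differences of the 8 genes was not tested.

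A term for depth changes this picture. With the libraries classed by depth, 7 of the 8 interactions passed, beside 11.9% of all 12414 genes, at 1.13 for Aqp4, 1.04 for Gja1, 0.93 for Aldh1l1, 0.77 for Kcnj10, 0.67 for Slc1a3, 0.53 for Hepacam and 0.47 for Glul, with Slc1a2 at 0.09. Their adjusted p values ranged from 3.5e-04 for Aqp4 and Gja1 to 0.031 for Glul, where the range over all alternatives reached 0.38 for Aqp4, 0.64 for Gja1 and 0.99 for Glul. All activated SOD1G93A libraries are in the shallow class and all activated WT libraries in the deep one, so the term is estimated from the quiescent libraries alone. Of the gene lists only Aldoc, the astrocyte form of aldolase, had a called interaction, at 0.67 (SE 0.13, adjusted p = 0.040, range 0.0014 to 0.16). The call was lost, at 0.61 to 0.74, without WT quiescent replicate 2, SOD1G93A quiescent replicate 2 or 3, WT activated replicate 1 or 3, or any of the activated SOD1G93A libraries, and also without the filter, without a trend and with a replicate block. It stands in both the metabolic list, with 1 of 17 called, and the identity list, with 1 of 18. Each of the other 11 lists gave 0 calls with limma. At an unadjusted p under 0.05 there were 39 of 138 list genes in all, beside 8.38% of all genes. The most called in any list was 2 by DESeq2 and 1 by edgeR.

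The third comparison sets quiescent SOD1G93A astrocytes against quiescent WT astrocytes. None of the 8 genes passed (limma, beside 0.0570% of 12271 genes), with 1 of the 8 at an unadjusted p under 0.05 beside 8.70% of all genes, and 0 called by DESeq2 or edgeR. The median of the 8 log2 differences was -0.24, against 0.00 over all genes. Slc1a2, with 644, 601 and 572 CPM in SOD1G93A, was above all 3 WT libraries at 446, 464 and 559 CPM, though the groups overlap in normalized counts. The log2 difference was 0.29 (SE 0.12, adjusted p = 0.54). The other genes lay the other way or level, from -0.29 for Gja1 (SE 0.15, adjusted p = 0.61) and -0.28 for Slc1a3 to -0.17 for Hepacam and -0.01 for Glul, and their groups overlapped. With 1 library left out, Gja1 ran from -0.43 to -0.15, Slc1a3 from -0.36 to -0.17 and Hepacam from -0.24 to -0.09. With a depth term Aqp4 at -0.38 and Gja1 at -0.41 passed, 2 of the 8 beside 6.08% of all genes, with adjusted p values of 0.030 and 0.020, in ranges up to 0.9975. Among the lists 1 gene was called, Gpr17, a gene of oligodendrocyte precursors, at -1.72 (SE 0.14, adjusted p = 0.0033). The call was lost without a trend and with a replicate block. It was 1 of 12 tested in its list, and the other 12 lists gave 0 calls with limma, with 36 of 136 list genes at an unadjusted p under 0.05. Microglia markers had 7 of 15 at that level with a median log2 difference of 0.57, and activation check genes a median of 0.48. Their part in the differences of the 8 genes was not tested. DESeq2 called 1 astrocyte identity gene and 2 oligodendrocyte lineage genes, and edgeR 1 of the latter.

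The fourth comparison sets activated SOD1G93A astrocytes against activated WT astrocytes. Here 3 of the 8 genes were higher in SOD1G93A cells, Aqp4, Gja1 and Aldh1l1, beside 4.60% of all 12098 genes higher and 7.27% called either way. In normalized counts the libraries of 5 of the 8 did not overlap, beside 24.1% of all genes. Slc1a3 is among the 5, though its libraries overlap in CPM. The median log2 difference was 0.17 against -0.00. None of the 8 passed the strict limits, beside 78 of all 12098 genes. Aqp4 had 88.352, 101 and 97.6 CPM in WT and 124, 123 and 125.5 CPM in SOD1G93A libraries. The SOD1G93A libraries were tightly grouped above the highest WT one. The log2 difference was 0.42 (SE 0.07, adjusted p = 7.4e-04), and 15 of 16 alternatives kept the call, all but limma without a trend, in a range of adjusted p from 3.1e-05 to 0.058. In the test of the response itself Aqp4 did not pass.

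Gja1 had 194, 192 and 185 CPM in WT and 219, 213 and 233 CPM in SOD1G93A libraries, again apart. The log2 difference was 0.26 (SE 0.06, adjusted p = 0.013, range 0.0026 to 0.14). The call was lost without WT replicate 2 at 0.26, without WT replicate 3 at 0.25, without SOD1G93A replicate 3 at 0.22, and without a trend. Aldh1l1 had 222, 210.1 and 233 CPM in WT and 285, 245 and 236 CPM in SOD1G93A libraries, which lay only just apart. The log2 difference was 0.24 (SE 0.07, adjusted p = 0.047, range 0.0066 to 0.28), and 7 of 16 alternatives lost the call, among them leaving out WT replicate 1 at 0.24, WT replicate 2 at 0.20, SOD1G93A replicate 1 at 0.16 or SOD1G93A replicate 2 at 0.27. Kcnj10 had 160.1, 176 and 195 CPM in WT and 202, 185 and 217 CPM in SOD1G93A libraries, which overlapped. Its log2 difference of 0.23 (SE 0.08) had an adjusted p of 0.088, in a range from 0.013 to 0.43, and passed without WT replicate 3 at 0.31 and with a replicate block at 0.23. Glul at 0.12, Hepacam at 0.08, Slc1a3 at 0.07 and Slc1a2 at 0.06 did not pass.

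Every activated SOD1G93A library was shallower, at 3721779, 3929272 and 2135439 reads, than every activated WT library, at 5047999, 6768201 and 5749391 reads. Depth and genotype therefore cannot be told apart here. The endogenous Sod1 gene had 314, 293 and 298 CPM in activated WT and 283, 315 and 336 CPM in activated SOD1G93A libraries, which overlapped.

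The glutamate, ion balance and folate lists held more differences of the same sign, while the metabolic list and several marker lists gave lower calls too. In all, 37 of 136 list genes were called either way, beside 7.27% of all genes. Of 16 glutamate, GABA and glutamine genes 7 were higher and 0 lower (median log2 difference 0.25). Among these were Slc6a9 at 0.90, Got1 at 0.62, Slc6a11 at 0.53, the glutamate receptor gene Grm5 at 0.44, the alanine aminotransferase gene Gpt2 at 0.35, and the neutral amino acid carrier gene Slc1a4 at 0.26. Of 18 ion balance genes 6 were higher and 0 lower (median 0.16), with Slc12a2 at 0.39, the bicarbonate carrier gene Slc4a4 at 0.31, the dystroglycan gene Dag1 at 0.28, the sodium pump subunits Atp1b1 and Atp1b2 at 0.23 each and Mlc1 at 0.19. Of 15 folate genes 3 were higher (median 0.05), all mitochondrial enzymes. They were Aldh1l2, the mitochondrial counterpart of Aldh1l1, at 1.16 (SE 0.12, adjusted p = 9.9e-07), Mthfd2 at 0.70 and Shmt2 at 0.65. Mlc1 was also the 1 of 2 Hepacam partners called, by limma and DESeq2 but not by edgeR. None of 7 other junction genes was called by limma, DESeq2 or edgeR, with 1 at an unadjusted p under 0.05 (median -0.09). In metabolic and lipid support 3 of 17 were higher, Acsbg1 at 0.65, the glycogen targeting gene Ppp1r3c at 0.58 and Aldoc at 0.37, and 2 were lower, Mt2 at -0.35 and Clu at -0.25 (median -0.03).

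Markers differed between these groups too. Of 17 astrocyte identity markers 4 were higher, Acsbg1, Aldoc, Atp1b2 and Mlc1, and 3 lower, Gfap at -0.33, Clu and the transcription factor gene Sox9 at -0.24. Among oligodendrocyte lineage genes Mbp was higher at 0.71, and Sox10 and Pdgfra were lower at -0.90 and -0.57, of 12 tested. Neuron markers gave 4 lower of 10, Dcx at -1.13, Stmn2 at -1.07, Gad1 at -0.97 and Nefm at -0.59, with sums of 148, 148 and 145 CPM in WT and 129.5, 102 and 105 CPM in SOD1G93A libraries. DESeq2 called 1 of these 4, Dcx, and edgeR called all 4. The endothelial gene Flt1 was lower at -0.30 and the fibroblast gene Dcn at -1.07, 1 of 5 in its list. Microglia markers gave 0 calls of 15 by limma, DESeq2 or edgeR, with 0 at an unadjusted p under 0.05. Of 10 activation check genes Cxcl10 at 1.71 and Gbp2 at 0.24 were higher, and Serpina3n at -0.64, Il6 at -0.63 and C3 at -0.26 were lower. The part of other cells in the differences of Aqp4, Gja1 and Aldh1l1 was not tested.

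Of the 37 list genes called between activated genotypes 8 kept their call under all alternatives, and 22 lost it in at least 1 fit without 1 library. WT replicate 1, whose leaving out reduced the genes called from 879 to 391, ended the calls of Aldoc, Gpt2 and Il6 alone, at 0.30, 0.28 and -0.51, and WT replicate 2 that of Slc1a4, at 0.23. Without either of those, Slc4a4 at 0.27 to 0.28, Mt2 at -0.34 to -0.33 and Dcn at -1.01 to -0.95 were lost, and Flt1 at -0.30 to -0.26 without WT replicate 2 or 3. Grm5 was lost without WT replicate 1 or SOD1G93A replicate 2, at 0.28 to 0.44. Calls lost by leaving out any 1 of 3 libraries were Dag1 at 0.21 to 0.28, Gbp2 at 0.20 to 0.25, Mbp at 0.50 to 0.72 and Sox9 at -0.23, in each case WT replicate 1 among them. Single leave-outs of 4 libraries ended the calls of Atp1b1 at 0.20 to 0.23, Atp1b2 at 0.15 to 0.25, C3 at -0.28 to -0.18, Clu at -0.26 to -0.18 and Gad1 at -0.91 to -0.77. Those of 5 libraries, all but SOD1G93A replicate 1, ended Mlc1 at 0.17 to 0.22, Nefm at -0.62 to -0.47 and Stmn2 at -1.12 to -0.93.

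Microglia held little RNA of most of these genes. In quiescent WT microglia the mean CPM of the 7 measured genes other than Glul lay between 1.18% of that in quiescent WT astrocytes, for Aldh1l1, and 4.81%, for Aqp4. Slc1a2 stood at 2.18%, Slc1a3 at 1.59%, Kcnj10 at 2.995%, Gja1 at 1.53% and Hepacam at 1.64%. Glul was the exception, at 90.0%, with 752, 766 and 705 CPM in microglia against 742, 822 and 905 CPM in astrocytes. Those libraries overlapped, so glutamine synthetase RNA was as abundant in cultured microglia as in astrocytes within the spread of the replicates. Cell types were not compared by a test.

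The fifth comparison sets LPS-treated WT microglia against quiescent WT microglia, groups that also differ in Xist and Ddx3y without overlap. Slc1a2 and Gja1 rose and Glul and Kcnj10 fell, and these 4 of 8 passed at an adjusted p under 0.05 beside 56.9% of all 10866 genes. In each direction 2 of the 8 passed, beside 28.6% of all genes higher and 28.3% lower. The strict limits were passed by 3 of the 8, beside 20.8% of all genes, and in normalized counts the groups of 4 did not overlap, beside 64.6%. Among 8 genes these shares say little beside the background, so the results are those of the single genes. The 4 calls held under all 17 alternatives.

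Glul had 752, 766 and 705 CPM in quiescent and 167, 176 and 196 CPM in LPS libraries. All LPS libraries were far below the quiescent ones, and Glul fell by 1.83 on the log2 scale (SE 0.09, adjusted p = 4.0e-08). Slc1a2 had 9.45, 12.2 and 10.4 CPM in quiescent libraries, from 96, 31 and 72 reads, and 38.0, 44.3 and 54.1 CPM in LPS libraries. The groups did not overlap, and the log2 change was 2.28 (SE 0.17, adjusted p = 8.6e-07). Gja1 had 5.71, 3.53 and 6.34 CPM in quiescent libraries, from 58, 9 and 44 reads, and 24.5, 29.0 and 36.4 CPM in LPS libraries. Each LPS library lay well above the quiescent range, for a log2 change of 2.72 (SE 0.23, adjusted p = 2.7e-06). Kcnj10 had 26.3, 20.8 and 25.1 CPM in quiescent and 13.2, 10.6 and 16.3 CPM in LPS libraries, which did not overlap, with a log2 change of -0.64 (SE 0.17, adjusted p = 0.0073).

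The rise of a glutamate transporter and a connexin left both far below astrocyte levels. Under LPS the mean of Slc1a2 reached 9.29% and that of Gja1 8.84% of quiescent WT astrocytes, and Glul came down to 21.8%. Astrocyte identity markers as a list did not rise, with 1 higher, Acsbg1, and 3 lower of 14 tested (median log2 change -0.03). The remaining 4 members had log2 changes of 0.22 for Aldh1l1, 0.05 for Slc1a3, -0.21 for Hepacam and -0.23 for Aqp4, with adjusted p values from 0.38 to 0.84. Slc1a3 turned to -0.01 with quantile normalization and lay between -0.09 and 0.29 with 1 library left out. In those fits Hepacam ran from -0.46 to -0.0086 and Aqp4 from -0.44 to -0.017.

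**Figure D3:**
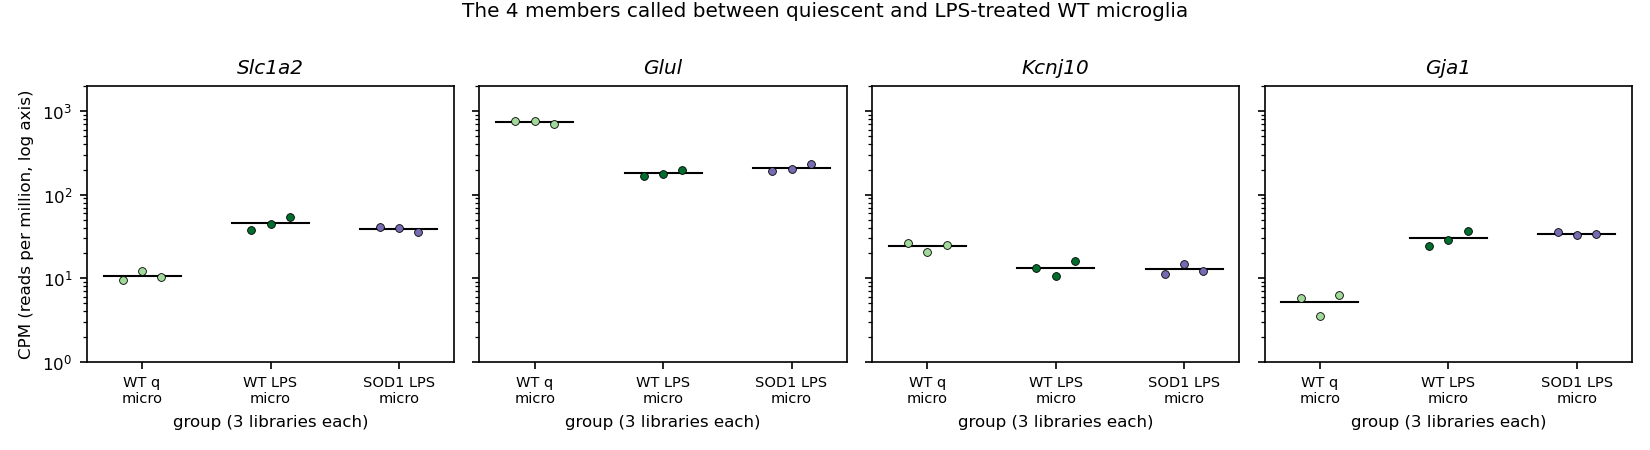
CPM of the 4 genes called between quiescent and LPS-treated WT microglia, in WT quiescent, WT LPS and SOD1G93A LPS libraries, with 1 point per library and a bar at the mean of each group (log axis). Slc1a2 and Gja1 rise from at most 12.2 and 6.34 CPM, their highest quiescent libraries, while Glul and Kcnj10 fall, and the LPS groups of both genotypes lie together.

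Around them, 66 of 113 list genes tested were called beside 56.9% of all genes, so the counts by list say little. Glutamate handling gave 3 higher and 4 lower of 13 genes (median log2 change -0.10). Slc7a11 rose by 3.86, Slc3a2 by 1.69 and Got1 by 0.98, and Got2 and Glud1, mitochondrial enzymes that use or make glutamate, fell by 0.67 and 0.54 on the log2 scale. Of 16 ion balance genes 1 rose, Aqp9, a water and glycerol channel gene, at 3.88 (SE 0.27, adjusted p = 7.2e-07), and 5 fell (median -0.26), among them Dag1 at -1.38. Of 5 other junction genes Tjp1 rose by 0.69, and Ctnnb1 and Panx1 fell by 0.67 and 0.59 (median -0.04). Folate genes gave 3 higher and 5 lower of 15 (median -0.19), with Mthfd2 at 0.93, Mthfd2l at 0.82, Aldh1l2 at -1.56, the folate carrier gene Slc19a1 at -1.16 and Mthfd1 at -1.06. The 1 Hepacam partner tested was not called by limma, DESeq2 or edgeR, and had an unadjusted p above 0.05. Metabolic and lipid support gave 4 higher and 4 lower of 15 (median -0.06), with Pla2g7 at 3.55, Slc2a1 at 0.63, Acsbg1 at 0.61, Ldhb at -2.27, Slc16a3 at -1.07 and Ldha at -0.42. Tjp1 lost its call without LPS replicate 3, at 0.58. Panx1 lost it without quiescent replicate 2 or 3 or LPS replicate 1 or 3, at -0.60 to -0.46, and Mthfd2l without quiescent replicate 1 or LPS replicate 2 or 3, at 0.70 to 0.81. DESeq2 called neither of these last genes, and Panx1 was also lost with quantile normalization and without the filter.

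Of 10 activation check genes 8 were higher in the LPS-treated cultures, led by Nos2 at 7.65, Il1a at 7.46 and Il6 at 7.26. Of 16 microglia markers 13 fell and 1 rose. Oligodendrocyte lineage genes gave 2 higher and 2 lower of 6, and their sum went from 1352, 1378 and 1392 CPM to 146, 145 and 146 CPM, led by Cspg4. Endothelial genes gave 2 higher and 1 lower of 3, pericyte and fibroblast genes 2 higher of 6, and the 1 neuron gene tested was not called by limma, DESeq2 or edgeR, with 0 at an unadjusted p under 0.05. The part of these shifts in the results for the 4 genes was not tested.

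The sixth comparison sets LPS-treated SOD1G93A microglia against LPS-treated WT microglia. None of the 8 genes passed (limma, beside 0.00936% of 10679 genes), and 0 were called by DESeq2 or edgeR. At an unadjusted p under 0.05 there were 0 of the 8, beside 8.71% of all genes. Slc1a2 had 40.9, 39.6 and 35.4 CPM in SOD1G93A libraries against 38.0, 44.3 and 54.1 CPM in WT libraries, and Gja1 had 35.3, 32.5 and 34.1 CPM against 24.5, 29.0 and 36.4 CPM. Both genes overlapped between genotypes. Glul had 191, 202 and 232 CPM against 167, 176 and 196 CPM, for a log2 difference of 0.22 with an adjusted p of 0.59. All 8 log2 differences lay between -0.49, for Aldh1l1, whose SOD1G93A libraries held 19, 88 and 8 reads, and 0.22 for Glul. That of Aldh1l1 ran from -1.002 to -0.05 with 1 library left out. All 13 lists gave 0 calls with limma, with 15 of 111 list genes at an unadjusted p under 0.05, beside 8.71% of all genes. DESeq2 called 1 microglia marker and 1 oligodendrocyte lineage gene, and edgeR 0.

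Put in order of mean CPM over the 7 groups, the genes fall into a few patterns. Slc1a2 ran from quiescent SOD1G93A astrocytes at 606 ± 36.4 (SD, n = 3) and quiescent WT astrocytes at 489.9 ± 60.5 to activated astrocytes at 302 ± 3.78 and 299 ± 6.75, which overlapped. Aqp4, Gja1 and Aldh1l1 shared another order. Quiescent WT and SOD1G93A astrocytes overlapped at the top, activated SOD1G93A astrocytes came next and activated WT astrocytes after them, with no overlap between these last groups. Kcnj10 and Hepacam had the quiescent groups overlapping with each other and the activated groups overlapping with each other, for Kcnj10 at 803 ± 82.9, 708 ± 64.4, 201 ± 16.0 and 177 ± 17.5 CPM. For Slc1a3 all 4 astrocyte groups overlapped in turn, from 2386 ± 167 to 2008 ± 238 CPM. Summed over the 9 genes, the libraries held 5464, 5948 and 6576 CPM in quiescent WT, 6005, 5479.8 and 4836 CPM in quiescent SOD1G93A, 3867, 3922 and 3997 CPM in activated WT and 4122, 4041 and 4230.5 CPM in activated SOD1G93A astrocytes. Quiescent WT microglia held 860, 857 and 807 CPM and LPS-treated microglia 298 to 365 CPM.

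The patterns over the 12 astrocyte libraries can be compared by the Pearson r of log2(CPM + 1), as a description, since these points share cell state and depth. Among 8275 genes with a mean of at least 100 reads, those most like Kcnj10 were Ttyh3 and Hepacam, both at r = 0.997, and those most like Hepacam were Kcnj10 and Racgap1, at 0.997 and 0.996. The genes most like Aqp4 were Gja1 at 0.954 and Dgkb at 0.951. For Gja1 they were Mpp5 and Hadha at 0.972 and 0.968, for Aldh1l1 Dennd5a and Abcd3 at 0.980 and 0.976, and for Glul Gpd1l and Rhobtb3 at 0.991 and 0.990. Slc1a2 was most like Dip2b and Prkd1, at 0.988 and 0.986, and Slc1a3 like Arhgef7 and D19Bwg1357e, at 0.923 and 0.912. Within the group r ran from -0.26 between Slc1a2 and Slc1a3 to 0.997 between Kcnj10 and Hepacam.

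In the GRCm38 annotation (GENCODE M21) the genes are scattered. Kcnj10 (172341210 to 172374085, plus strand) and Glul (153899944 to 153909723, plus strand) share chromosome 1 at a distance. Slc1a2 lies on chromosome 2, Aldh1l1 on 6, Hepacam on 9, Gja1 on 10, Gjb6 on 14 and Slc1a3 on 15. Their annotated exons span 2674 bases for Gjb6 to 13133 bases for Slc1a2. Glul overlaps a protein-coding gene on the other strand, Teddm2, which had at most 1 read in any library.

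As 7 of the 8 measured genes fell in the cytokine response of WT astrocytes, promoter windows are shown for 4 members. Each window holds the 250 bases upstream of the transcript start in the promoter table of RefSeq (build GRCm38.p6). The 4 were chosen to set the strongest fall, Kcnj10, and Glul and Gja1 beside Slc1a3, which did not pass in the main fit of WT cells. The windows were searched on both strands for GGGANNTTC (NF-kB core), TGANTCA (AP-1), TTCNNNGAA (STAT), TTGGCA (NFI half-site) and TATAAA (known as the TATA box), found in 3.23%, 6.75%, 7.02%, 12.3% and 12.4% of 32851 promoter windows of this length. Matches are in capitals. Gja1 holds an AP-1 match starting 19 bases before the transcript start. Slc1a3 holds a STAT match starting 96 bases before it and a TATA box match, on the other strand, starting 161 bases before it. The windows of Kcnj10 and Glul hold none of these letters. Of the windows not shown, that of Hepacam holds an NFI half-site match starting 39 bases before the start, and those of Slc1a2, Aldh1l1 and Gjb6 hold none. The windows of Slc1a2 and Aldh1l1 belong to transcript starts well inside the annotated genes. That of Hepacam, from 37367356 to 37367605 on chromosome 9, also lies inside its gene, which is annotated from 37367351. The table holds 8 of the 9 genes, all but Aqp4. A match is a description of the letters only. The windows are Kcnj10 chr1:172340960-172341209 (plus strand), Glul chr1:153899679-153899928 (plus strand), Gja1 chr10:56377050-56377299 (plus strand) and Slc1a3 chr15:8710808-8711057 (minus strand).
Kcnj10: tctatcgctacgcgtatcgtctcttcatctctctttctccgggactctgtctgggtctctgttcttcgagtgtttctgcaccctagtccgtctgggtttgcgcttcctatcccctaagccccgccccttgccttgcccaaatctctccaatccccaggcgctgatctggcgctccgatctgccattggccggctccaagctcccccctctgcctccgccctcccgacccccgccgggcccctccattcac
Glul: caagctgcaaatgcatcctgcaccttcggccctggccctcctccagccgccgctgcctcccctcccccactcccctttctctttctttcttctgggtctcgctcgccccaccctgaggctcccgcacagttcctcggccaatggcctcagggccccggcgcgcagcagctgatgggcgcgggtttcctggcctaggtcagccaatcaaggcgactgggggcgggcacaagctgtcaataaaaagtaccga
Gja1: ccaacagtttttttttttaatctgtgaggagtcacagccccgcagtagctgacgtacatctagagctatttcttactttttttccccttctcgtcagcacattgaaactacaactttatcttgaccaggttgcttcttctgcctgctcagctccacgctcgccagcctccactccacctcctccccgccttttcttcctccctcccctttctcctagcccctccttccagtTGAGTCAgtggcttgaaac
Slc1a3: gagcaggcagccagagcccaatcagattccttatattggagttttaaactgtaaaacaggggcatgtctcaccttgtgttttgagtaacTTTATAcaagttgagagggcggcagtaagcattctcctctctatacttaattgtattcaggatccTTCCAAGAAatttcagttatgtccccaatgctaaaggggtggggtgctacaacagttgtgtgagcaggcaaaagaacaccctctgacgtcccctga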

How the data were processed

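The deposited signal values are normalized counts that the authors made with STAR, RSEM and DESeq2 on mm10, dividing reads by a size factor per library. Whole reads recovered were computed here from these deposited normalized counts, 100% of them whole within 0.001 reads. The tables also hold the authors' mean normalized count, log2 fold change, its standard error, test score, p and adjusted p, which were not used here. Libraries came from a strand-specific kit. The strand setting of counting is not in the text held here, which points to an online pipeline that was not used here. Comparisons inside 1 table used limma-trend on log2(normalized count + 1) for genes with a mean of at least 10, with Benjamini-Hochberg adjusted p. The SOD1G93A cytokine response and the interaction used limma-trend on log2 CPM (TMM) of 12 astrocyte libraries. With 3 libraries against 3 an exact test cannot go below p = 0.1, so moderated p values are given. Members and gene lists were chosen with earlier results of these data known. Results for some genes of the lists are not reported here. Versions were R 4.3.3, limma 3.58.1, edgeR 4.0.16 and DESeq2 1.42.0, and exon lengths come from GENCODE M21.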

Additional observations from a re-analysis of the deposited data

Results flagged for a closer look

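Aldoc was raised because its cytokine response differed between genotypes in the interaction test. It went from 2031 ± 97.3 to 531 ± 54.2 normalized counts in WT astrocytes (SD, n = 3), a log2 change of -1.94, and from 337 ± 28.4 to 139 ± 8.18 TMM-scaled CPM in SOD1G93A astrocytes, a log2 change of -1.26. The difference was 0.67 on the log2 scale (limma, SE 0.13, adjusted p = 0.040, range over the alternatives 0.0014 to 0.16). Of 22 alternatives 11 kept the call, with values from 0.61 to 0.85 and never a change of sign. Leaving out WT quiescent replicate 2, SOD1G93A quiescent replicate 2 or 3, WT activated replicate 1 or 3, or any of the 3 activated SOD1G93A libraries ended it, as did fitting without the filter, without a trend or with a replicate block. The cause was not tested.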

How the results depend on the processing

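Genes called between quiescent genotypes, 7, became 3 without the filter, 0 without trend, 54 with DESeq2, 0 with a replicate block, 746 with a depth term and 1 to 6 without 1 library, with 7 (DESeq2) and 13 (depth) past the strict limits and 2 members (depth). Between activated genotypes 879 became 222 without trend (strict 1, members 0), 582 with DESeq2 and 391 to 1168 without 1 library (members 1 to 3). Between LPS genotypes 1 became 2 without the filter, 0 without trend, 12 with DESeq2 (strict 3), 2 with the block, 14 with depth (strict 1) and 0 to 2 without 1 library. Interactions, 25, became 13 without trend, 68 with DESeq2 (strict 22, members 1), 15 with the block, 1482 with depth (strict 41, members 7, strict members 2) and 13 to 58 without 1 library (strict 0 to 6, members 0 to 1), and strict ones 1 with prior count 5 and 4 with edgeR. Signs turned for Glul between quiescent genotypes (quantile 0.0250, without 1 library -0.10 to 0.0714), Slc1a3 under LPS (quantile -0.0082, without 1 library -0.0910 to 0.29), and between LPS genotypes for Aqp4 (depth -0.0659, without 1 library -0.0939 to 0.33), Kcnj10 (-0.19 to 0.11), Hepacam (-0.49 to 0.10) and Slc1a3 (-0.50 to 0.14). With depth, Aqp4 in the SOD1G93A response was 0.0948 and the Slc1a2 interaction 0.0854. The depth term was chosen after seeing the data and could not be fitted between activated genotypes. Same-number libraries of compared groups correlated at -0.44 to 0.06 and different-number ones at -0.13 to 0.52. With 3 libraries per group this cannot show whether replicate numbers pair samples, and the main fits took no pairing. The cause of these shifts was not tested.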
